A study of Mus musculus with 27 samples.

Results

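The genes described here encode 10 subunits of the SWI/SNF chromatin remodelling complex other than the scaffold Smarcc1, the gene deleted in the mutants. They are the ATPases Smarca4 and Smarca2, the core subunits Smarcb1, Smarce1, Smarcd1 and Smarcd3, and the targeting subunits Arid1a, Arid1b, Arid2 and Pbrm1. They were chosen by name, found in the count table through their Ensembl identifiers, and make up 10 of its 55487 genes, and all 10 passed the filter on low counts (over 10 counts in 3 or more of 27 libraries).

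RNA was measured in mouse embryos at embryonic day 14, in pieces of the optic stalk cut out by laser capture. From each of 4 control and 5 Smarcc1-DCT-cKO embryos the dorsal stalk, the ventral stalk and an axon-rich area were captured, which makes 6 region-by-genotype groups. The mutants carry loxP-flanked Baf155 (Smarcc1) alleles, the Dct-Cre transgene and the Z/EG reporter on a C57Bl6/J background, and the controls are littermates without Dct-Cre. Cre is driven by the pigment gene Dct, so deletion is limited to cells in which Dct-Cre was active and their progeny, and other cells in a captured piece keep Smarcc1. Batch A holds control 1 and mutants 1 to 3, and batch B holds controls 2 to 4 and mutants 4 and 5. Libraries of the same genotype and number were taken as 1 embryo. The p-values between genotypes below are set against the spread between embryos within a region. Those that compare regions are set against the spread of differences within embryos.

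SWI/SNF complexes use the energy of ATP to slide or evict nucleosomes. Each complex holds a single ATPase, either Smarca4 (Brg1) or Smarca2 (Brm), on a core to which Smarcc1 and Smarcc2 serve as scaffolds. Arid1a and Arid1b mark the canonical BAF form, whereas Arid2 and Pbrm1 mark the PBAF form, and the scaffolds are known to protect other subunits from degradation at the protein level. The counts here are of RNA, and in such bulk pieces fewer cells of a type and less RNA per cell cannot be told apart.

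The total count was 10899418 to 33980417 per library, so that 1 count equals 0.0294 to 0.0917 CPM (counts scaled to the library total, the usual unit of RNA levels). Between 9225 and 16810 genes had a count, with the lowest number in an axon mutant. Smarcc1 lay below every control in all 5 mutant libraries of the ventral and of the axon region (exact permutation p = 0.0159 in each, two-sided). In the dorsal region the libraries labelled mutant 1 and 2 had 94.9 and 107 CPM of Smarcc1, against 75.9 to 289 CPM in the controls, and dorsal results that rest on them are therefore also given without them. Captured material differed too. The summed level of 10 mesenchyme markers was 1147 to 11282 CPM in dorsal controls and 55.7 to 403 CPM in dorsal mutants, that of 9 stalk and astrocyte progenitor markers 2510 to 3323 against 874 to 1721 CPM, and that of 7 pigment markers 39.5 to 4864 against 2999 to 11910 CPM. In the axon pieces 8 neuron and axon markers summed to 1201 to 1577 CPM in controls and 805 to 2133 CPM in mutants, although Pou4f2, a gene of retinal ganglion cells, was at 0 in all libraries of both groups.

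The ATPases are alternatives at the same place in the complex, and their promoters are shown because the balance between them is followed through all groups. Both are taken from RefSeq on build GRCm38.p6, from 250 bases before to 50 after the start that RefSeq gives on the plus strand (for Smarca2 this start lies inside the Ensembl gene model given next), with each GGGCGG or its reverse complement CCGCCC (the GC box, a site type read by Sp1-family factors) in capitals. The genes lie on mm10 at chr9:21616169-21704230 (Smarca4, ENSMUSG00000032187.16) and chr19:26605050-26778322 (Smarca2, ENSMUSG00000024921.17). The Smarca4 window is chr9:21615919-21616218 and the Smarca2 window is chr19:26604910-26605209.
Smarca4: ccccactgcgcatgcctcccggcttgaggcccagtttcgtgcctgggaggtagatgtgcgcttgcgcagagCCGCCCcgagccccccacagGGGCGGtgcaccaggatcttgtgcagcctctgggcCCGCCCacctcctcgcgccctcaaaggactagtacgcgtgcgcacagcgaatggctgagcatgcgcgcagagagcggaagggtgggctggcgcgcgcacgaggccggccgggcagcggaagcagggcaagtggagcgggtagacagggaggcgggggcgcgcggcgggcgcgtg
Smarca2: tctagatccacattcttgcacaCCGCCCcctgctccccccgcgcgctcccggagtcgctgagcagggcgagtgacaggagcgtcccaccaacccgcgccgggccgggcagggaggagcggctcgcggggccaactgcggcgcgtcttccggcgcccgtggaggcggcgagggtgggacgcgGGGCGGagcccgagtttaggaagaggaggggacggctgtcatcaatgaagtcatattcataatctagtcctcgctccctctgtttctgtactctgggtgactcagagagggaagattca

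The Smarca4 window held 3 such motifs and 72.3% G and C, the Smarca2 window 2 motifs and 65.7% G and C. Promoters were found for 8 of the 10 subunits (9 windows, as Arid1a has a pair), and 9 of 9 held the motif on either strand, as did 35.7% of all 32851 windows in the table. Their median G and C content was 71.3%, against 52.7% over all windows, and their median ratio of observed to expected CpG was 0.92 against 0.38. These letters are a description of the windows, and no binding was measured.

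Levels of different genes were compared as CPM per kb of merged exons. Over the 27 libraries Smarca4 led with a mean of 37.9 CPM per kb, followed by Smarcb1, the small core subunit lost in rhabdoid tumours, at 31.6, and Pbrm1, the bromodomain protein of PBAF, at 27.9 CPM per kb. Smarce1 (16.5 CPM per kb), an HMG-box core subunit, and Arid1a (14.7 CPM per kb) lay in the middle. Arid2 and Smarca2 stood at 9.31 and 9.29 CPM per kb and Smarcd1 at 6.93 CPM per kb. Arid1b (2.27 CPM per kb) and Smarcd3 (1.41 CPM per kb) were lowest.

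Means of neighbours in this order often lay within their SDs of each other. In ventral controls Smarca4 stood at 40.3 ± 8.2, Smarcb1 at 33.1 ± 13.4 and Pbrm1 at 27.2 ± 4.71 CPM per kb (SD, n = 4 each). Arid1a and Arid1b were further apart, with group means of 11.3 to 18 CPM per kb for the first and 1.9 to 2.91 CPM per kb for the other. The order depends on the length used. Per kb of the longest transcript 4 of the 10 kept their rank, and Smarce1 stood at 35.3 and Smarca2 at 22.4 CPM per kb.

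**Figure D1:**
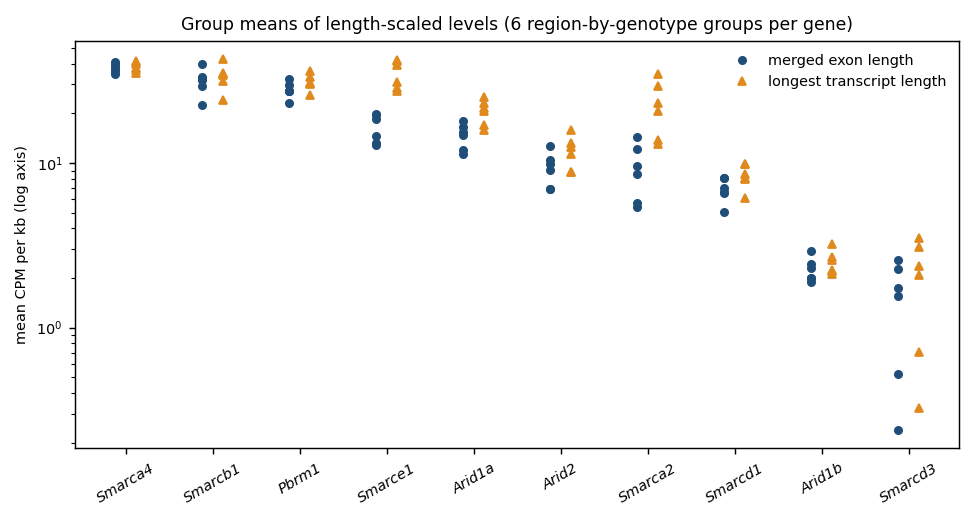
Mean CPM per kb (log axis) of each subunit in the 6 region-by-genotype groups, scaled by merged exon length (blue circles) or by the longest transcript (orange triangles). Smarca4, Smarcb1 and Pbrm1 were at 22.5 or above in every group with either length, Arid1b and Smarcd3 were at 3.49 or below, and Smarce1 and Smarca2 moved most with the length used.

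The spread within a group differed widely between the 10 genes. The pooled SD of log2(CPM + 1) within groups had a median of 0.99 over the 10 genes, from 0.55 for Smarce1 to 1.72 for Smarcd3, against a median of 1.54 over all 16330 genes tested. The range between the highest and lowest of the 6 group means on this scale was 0.47 for Pbrm1, 0.61 for Smarca4 and 2.39 for Smarcd3.

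The first comparison asks whether RNA of the remaining subunits differed between mutants and controls within a region. Of the 10 genes 0 were called by edgeR in the dorsal, ventral or axon region (adjusted p under 0.05 and absolute log2 fold change over 0.58). Over all genes the same rule called 0.0124% in the dorsal, 0% in the ventral and 0% in the axon region, so 0 of 10 is no different from the background. At an unadjusted p under 0.05 edgeR counted 0, 0 and 1 of the 10, where 5.35%, 3.19% and 3.55% of all genes passed. DESeq2, which called 3.3%, 2.12% and 8.23% of all genes in these regions, and limma voom, which called 0.254%, 0.0372% and 0.3%, called 0 of the 10 as well. Median log2 fold changes of the 10 were -0.03, -0.02 and -0.14, beside -0.04, -0.08 and -0.29 over all genes. By the exact permutation test over single genes (unadjusted p under 0.05), 1, 0 and 0 of the 10 passed, where 7.66%, 4.12% and 4.91% of all genes did. Without the dorsal libraries labelled mutant 1 and 2, edgeR called 0 of the 10, Smarca4 turned from 0.10 to -0.06 on the log2 scale, and the others kept their sign, from -2.6 for Smarcd3 to 0.93 for Smarcd1. The exact permutation test then passed 2 of the 10, Smarcb1 and Smarce1, where 2.95% of all genes did. With all libraries, in no region did the genotypes fail to overlap for any of the 10, a pattern seen in 2.92%, 1.23% and 1.28% of all genes.

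**Figure D2:**
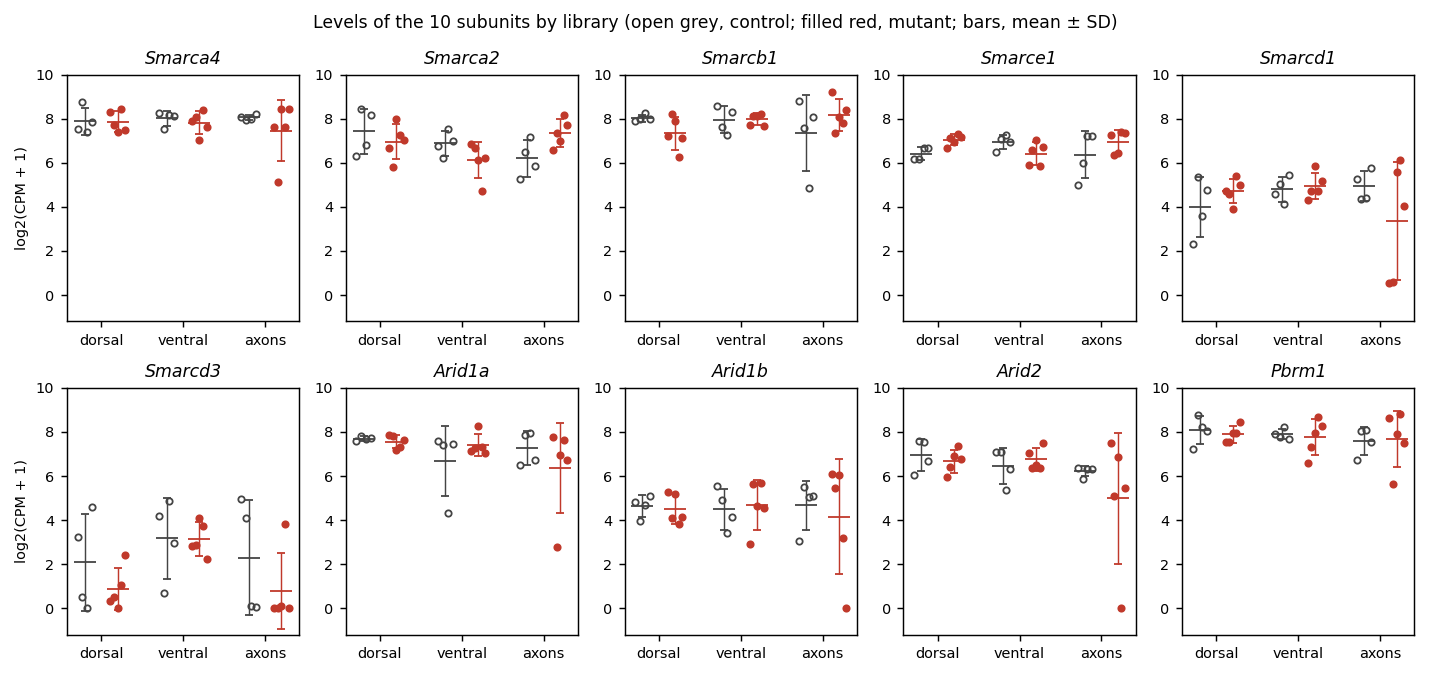
log2(CPM + 1) of each subunit in all 27 libraries, by region, with controls as open grey and mutants as filled red circles and bars for mean ± SD. Genotypes overlap in every panel and region. In axon mutants Smarcd3 lay at or near 0 in 4 libraries and Smarcd1 below 1 CPM in 2, and Arid1b and Arid2 were at 0 in 1 library each.

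Smarca4, the main ATPase of these pieces, was measured at 182, 433, 167 and 229 CPM in dorsal controls and at 318, 206, 168, 340.2 and 177 CPM in dorsal mutants. The ventral levels were 303, 183, 283 and 275 CPM in controls and 240.3, 272, 129.9, 337 and 195 CPM in mutants. In the axons the controls stood at 272, 247, 255 and 291 CPM and the mutants at 198, 33.5, 347, 198 and 350 CPM. Dorsal mutants lay within the control range and ventral mutants on both sides of it. The axon controls were close together and all 5 axon mutants lay outside them, 3 below and 2 above, with mutant 2 at the lowest Smarca4 level of all libraries. The edgeR log2 fold changes were 0.10 ± 0.37 (SE; 95% interval -0.70 to 0.90) dorsally, -0.16 ± 0.32 (-0.85 to 0.54) ventrally and -0.16 ± 0.56 (-1.37 to 1.05) in the axons. As ratios of mutant to control, the dorsal interval runs from 0.617 to 1.87.

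Smarca2, the alternative ATPase, was at 78.1, 345, 109 and 285 CPM in dorsal controls and at 102, 55.8, 249, 150.4 and 129.8 CPM in dorsal mutants. Its ventral levels were 108, 72.5, 185 and 128 CPM in controls and 115, 101, 69.5, 25.6 and 74.1 CPM in mutants. In the axons the controls had 37, 88.5, 144 and 57.6 CPM and the mutants 93.1, 160.5, 125, 286 and 206 CPM. All 5 axon mutants were above the control median, and control 3 alone overlapped them. The axon log2 fold change was 1.48 ± 0.55 (SE; edgeR adjusted p = 0.88), the single member value with an unadjusted p under 0.05 (0.0227). The exact permutation p was 0.0556 (0.075 within batches), the fold change was 1.72 in batch A and 1.33 in batch B on the log2 scale, and it ranged from 1.29 to 1.75 when each library was left out. Without control 3 the exact permutation p was 0.0357. Leaving out the only overlapping control separates the genotypes beforehand, so this value is no further support. In the same axon pieces 6 of 7 endothelial markers had a higher mean in mutants (summed level 3.33 to 182 CPM in controls, 0.584 to 366 CPM in mutants), and so did 5 of 6 erythroid markers (2557 to 7783 CPM and 549 to 29611 CPM). Over the 27 libraries, which share embryos and batches, Smarca2 had a Spearman correlation of 0.41 with the erythroid, 0.39 with the mesenchyme and 0.14 with the endothelial sum. Their part in the Smarca2 value was not tested. Dorsally and ventrally the Smarca2 log2 fold changes were -0.21 ± 0.54 and -0.96 ± 0.52 (SE; edgeR adjusted p = 1 and 0.999).

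**Figure D3:**
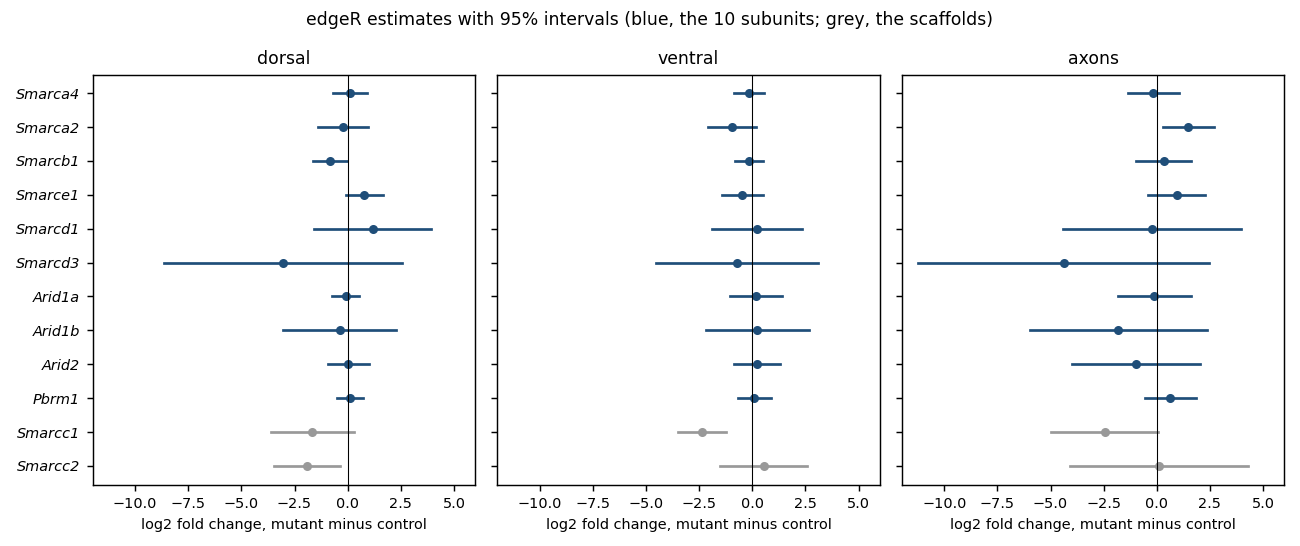
edgeR log2 fold change of mutants over controls with its 95% interval in each region, for the 10 subunits (blue) and the scaffolds Smarcc1 and Smarcc2 (grey). Intervals of Smarca4, Pbrm1 and Smarcb1 are narrow next to those of Smarcd3 and Arid1b. The Smarcc1 estimate lies below 0 in all 3 regions. Its interval lies below 0 ventrally (-3.50 to -1.25) but crosses 0 dorsally (-3.62 to 0.30) and in the axons (-4.98 to 0.07).

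Among the core subunits, Smarce1 (chr11:99209047-99231017, minus strand) gave the lowest exact permutation p. Its dorsal levels were 70.1, 70.6, 99.4 and 100 CPM in controls and 99.8, 139, 123, 157 and 142 CPM in mutants. The means were 85 ± 16.9 (SD, n = 4) and 132 ± 21.8 CPM (SD, n = 5), and the genotypes overlapped only through control 4 and mutant 1, which were nearly level. The exact permutation p was 0.0238 (0.025 within batches, the smallest that 40 splits can give), and edgeR gave a log2 fold change of 0.77 ± 0.40 (SE; adjusted p = 0.918), with 0.78 in batch A and 0.75 in batch B. Without the libraries labelled mutant 1 and 2 the log2 fold change was 0.78. Leaving out control 1, control 2 or any of mutants 2 to 5 moved the exact permutation p to 0.0536 or 0.0571. All 7 proliferation markers also had a higher mean in dorsal mutants (summed level 1145 to 2349 CPM in controls, 2026 to 3127 CPM in mutants), as had all 7 pigment markers. Over the 27 libraries the Spearman correlation of Smarce1 was 0.07 with the proliferation, -0.07 with the pigment and 0.45 with the erythroid sum, of whose 6 markers 5 had a lower mean in dorsal mutants. Their part in the Smarce1 value was not tested. Of the 50-base words in Smarce1 exons 15% occur also in other genes, mostly its pseudogenes Gm8494, Smarce1-ps1 and Gm4811, which had at most 7.74, 0.399 and 2.89 CPM. Ventrally Smarce1 went the other way, with means of 123 ± 26.1 (SD, n = 4) and 88.4 ± 30.8 CPM (SD, n = 5) and an exact permutation p of 0.151.

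Smarcb1 (chr10:75896769-75921617, minus strand) was at 236, 250.1, 303 and 249 CPM in dorsal controls, and at 147, 295, 234, 76.1 and 140.4 CPM in dorsal mutants. The controls lay close together, and 4 of 5 mutants were below all of them. The log2 fold change was -0.83 ± 0.37 (SE; edgeR adjusted p = 0.918), and the exact permutation p was 0.103. The log2 fold change ran from -1.28 to -0.48 when each library was left out, and was -0.47 with limma voom. Without the libraries labelled mutant 1 and 2, of which mutant 2 had the 295 CPM, the exact permutation p was 0.0286 and the edgeR log2 fold change -0.89 (adjusted p = 0.889). This exact permutation p is the smallest that the fewer splits can give. The difference lay in batch B (-1.29 on the log2 scale) and hardly in batch A (-0.07), where there is 1 control. In the ventral and axon regions the log2 fold changes of Smarcb1 were -0.14 ± 0.30 and 0.33 ± 0.59 (SE).

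Smarcd1 and Smarcd3 are alternative core subunits that link the complex to transcription factors, Smarcd3 being best known from heart and muscle. Smarcd1 ranged from 0.458 to 68.2 CPM over all libraries, with axon mutants at 0.458, 0.512, 47.5, 68.2 and 15.2 CPM next to axon controls at 37.7, 19.6, 20 and 52.9 CPM. Smarcd3 had 3 or fewer counts in 9 of the 27 libraries and at most 29.9 CPM. Its axon mutants stood at 0, 0, 0.068, 13.4 and 0 CPM and its axon controls at 29.9, 16.3, 0.0596 and 0.0458 CPM, so low libraries occurred in both genotypes. The log2 fold changes of Smarcd3, -3.05 ± 2.57, -0.73 ± 1.75 and -4.38 ± 3.18 (SE), are wide for that reason (edgeR adjusted p = 1, 0.999 and 0.931). Of the Smarcd3 exons 48.2% overlap Chpf2 on the other strand. Since the strand setting of the counting is not given, reads of both genes may be mixed or left out there. Chpf2 had 0 to 33.2 CPM (median 1.99 CPM). Smarcd2, a paralog of Smarcd1 and Smarcd3, was at 0 in every library but 1 axon control, at 0.0458 CPM. With the annotation release and strand setting not given, absent Smarcd2 RNA and reads lost in counting cannot be told apart.

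Arid1a, the DNA-binding subunit of the BAF form, was nearly even in the dorsal pieces when all libraries were used. Dorsal controls had 189, 225, 201 and 212 CPM and dorsal mutants 229, 222, 144, 160.3 and 199.8 CPM, with a log2 fold change of -0.10 ± 0.30 (SE; 95% interval -0.75 to 0.55). The libraries labelled mutant 1 and 2 were the highest of these mutants. Without them the edgeR log2 fold change was -0.25 ± 0.34 (SE) and the exact permutation p was 0.0571. Outside the dorsal region single libraries stood apart, with ventral control 3 at 18.8 CPM against 167 to 191 CPM in the other controls, and axon mutant 2 at 5.92 CPM against 105 to 217 CPM in the other mutants. Arid1b ranged from 0 to 67.2 CPM, and its log2 fold changes had SEs of 1.12 to 1.93. Axon mutants gave 67.2, 43.5, 64.6, 8.17 and 0 CPM of Arid1b, a spread as wide as its range over all libraries.

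Of the PBAF subunits, Arid2 stood at 65.8, 191, 183 and 101 CPM in dorsal controls and 61.1, 84.7, 118, 162 and 107 CPM in dorsal mutants. In the axons its controls were close (82, 57.7, 78.8 and 79.5 CPM) and its mutants far apart (181, 32.9, 116, 0 and 43.6 CPM). On the log2(CPM + 1) scale Pbrm1 had the smallest range of group means of the 10 (0.47). In CPM, where the Smarca4 means lay closer together, the Pbrm1 means ran from 205.5 ± 76.6 (axon controls) to 286 ± 118 CPM (dorsal controls, SD, n = 4 each). Its log2 fold changes were 0.10 ± 0.29 dorsally (95% interval -0.52 to 0.73), 0.10 ± 0.35 ventrally and 0.64 ± 0.55 in the axons (SE).

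The scaffold paralog Smarcc2, which can take the place of Smarcc1 in the complex, was at 138, 146, 76.2 and 74.6 CPM in dorsal controls and at 41.6, 7.09, 45.2, 23.7 and 32.5 CPM in dorsal mutants. All dorsal mutants lay below all controls (exact permutation p = 0.00794, the smallest that splits of 9 libraries can give), but the log2 fold change of -1.92 ± 0.72 (SE) had an edgeR adjusted p of 0.918. Bcl7a, a small subunit of the ATPase module, went the other way at the same exact permutation p, with all dorsal mutants above all controls (means 19.5 ± 11.7 and 50.9 ± 21.3 CPM, SD) and a log2 fold change of 1.54 ± 1.00 (SE; edgeR adjusted p = 0.953). Actl6a, an actin-related subunit, had an exact permutation p of 0.0397, with 5 of 5 mutants above the control median. Dorsally 2.92% of all genes did not overlap between genotypes, and 7.66% had an exact permutation p under 0.05 (unadjusted). Without the libraries labelled mutant 1 and 2 the exact permutation p was 0.0286 for Smarcc2, 0.0571 for Bcl7a and 0.229 for Actl6a. Of these, 0.0286 is the smallest that the fewer splits can give, and Smarcc2 and Bcl7a still did not overlap between genotypes. In the ventral and axon regions the Smarcc2 genotypes overlapped, and control means were 28 ± 15.8 and 31 ± 21.9 CPM (SD, n = 4 each). The dorsal controls stood above these at 109 ± 38.6 CPM, while the dorsal mutants had 30 ± 15.3 CPM (SD). Dorsal pieces of the genotypes also differed in captured material, and its part in the Smarcc2 value was not tested. Of the 18 other subunits listed, 16 were tested, and 0 were called by edgeR in any region. By edgeR unadjusted p under 0.05 Smarcc2 and Brd9 (-1.08 ± 0.49, SE, on the log2 scale) were lower dorsally. Brd9 no longer passed without the libraries labelled mutant 1 and 2. Smarcc1 was lower ventrally (-2.37 ± 0.52, SE, edgeR adjusted p = 0.999), and 0 passed in the axons. By exact permutation Bcl7c was higher in axon mutants (means 11.8 CPM in controls and 89.5 CPM in mutants). Its exact permutation p was 0.0476 (0.075 within batches), where 4.91% of all genes passed 0.05 in the axons.

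The next comparison asks whether the subunits differed between regions of the same embryos. With the embryo as a block, 0 of the 10 were called by edgeR between any pair of regions, over both genotypes or within either. Over both genotypes the share of all genes called was 0.049% between dorsal and ventral, 1.35% between dorsal and axons and 0.857% between ventral and axons. Within controls it was 0%, 0.704% and 0.251%, and within mutants 0.0306%, 0.698% and 0.545%. At an unadjusted p under 0.05, edgeR counted 2 values of the 10 genes over these 9 comparisons, both in mutants. All genes passed this p at 4.71%, 13.1% and 11.8% over both genotypes, 2.99%, 6.09% and 4.51% within controls and 3.71%, 12.2% and 11.2% within mutants, in the same order of region pairs. They were Smarcb1, lower in dorsal than axon mutants by -1.05 ± 0.45 and Smarca2, lower in ventral than axon mutants by -1.31 ± 0.53 in log2 units (SE in each; adjusted p = 0.379 and 0.389, edgeR). Without the same 2 dorsal libraries the Smarcb1 value was -1.22 ± 0.54 (SE; edgeR adjusted p = 0.535).

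Most genes had lower values in the axon pieces, and how far the 10 subunits went with them depended on the scaling. In the TMM-scaled edgeR fit the median log2 difference between dorsal and axons over both genotypes was 0.84 over all genes, 0.73 over the 16 other subunits tested and -0.04 over the 10. Between ventral and axons these medians were 0.91, 0.74 and -0.10, and 5 and 3 of the 10 were higher than in the axons. In CPM without TMM scaling 8 of the 10 were higher in dorsal and 8 in ventral than in axon pieces, with medians on the log2(CPM + 1) scale of 0.25 and 0.20, against 0.52 and 0.51 over all genes. The exact sign-flip permutation test over 9 embryos (unadjusted p under 0.05) passed 1 of the 10 between dorsal and ventral (7.67% of all genes), 0 between dorsal and axons (13.9%) and 0 between ventral and axons (14.3%). The 1 gene was Smarcd3, lower dorsally by -1.76 ± 2.09 on the log2(CPM + 1) scale (SD of the differences; exact permutation p = 0.043; higher dorsally in 2 of 9 embryos). It was no longer past 0.05 with a pseudocount of 5 CPM, nor without the embryos of the dorsal libraries labelled mutant 1 and 2 (exact permutation p = 0.172), where Arid2 passed between dorsal and axons (1.66, exact permutation p = 0.0469). DESeq2 called Smarcd3 higher in ventral than axon pieces over both genotypes and in mutants (adjusted p = 0.0475 and 0.00173), and 0 of the 10 in the other 7 comparisons of regions. In the same order of region pairs, DESeq2 called 9.38%, 22.8% and 21.8% of all genes over both genotypes, 6.23%, 12.1% and 11.1% within controls and 7.4%, 24.8% and 23.6% within mutants. Limma voom called 0 of the 10 in all 9, and 0.282%, 4.91% and 4.04%, 0.19%, 1.59% and 0.808%, and 0.38%, 5.14% and 4.79% of all genes.

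A change of the mutant effect between regions was tested as an interaction. Of the 10 genes 0 were called by edgeR between dorsal and ventral, dorsal and axons or ventral and axons, where 0.00612%, 0.0122% and 0% of all genes were. At an unadjusted p under 0.05 edgeR counted 0, 0 and 1 of the 10 (2.29%, 4.95% and 3.9% of all genes), while DESeq2 (7.28%, 11.8% and 10.6% of all genes) and limma voom (0.0429%, 0.441% and 0.147%) called 0. The lowest p was that of Smarca2, whose mutant effect was lower ventrally than in the axons with a log2 difference of -1.84 ± 0.80 (SE; edgeR unadjusted p = 0.0378 and adjusted p = 1). Dorsally against the axons its value was -1.72 ± 0.80 (edgeR adjusted p = 0.96), and -1.28 ± 0.87 without the 2 dorsal libraries.

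Shares within paralog pairs were computed per library from CPM per kb and are descriptions. Smarca2 made up 16.3, 26.6, 22.9 and 36.1% of the ATPase RNA in dorsal controls and 12.7, 11, 40.2, 16.7 and 24.9% in dorsal mutants, the first 2 being the libraries with Smarcc1 at control levels (mean of the others 27.3 ± 11.9%, SD). In ventral pieces the share was 13.9 to 22.9% in controls and 3.34 to 19.5% in mutants. In the axons controls had 5.81, 14, 20.4 and 8.23% and mutants 17.6, 68.5, 14, 39.6 and 21%. The 68.5% belonged to mutant 2, whose Smarca4 was low, and control 3 overlapped the mutants, while control 2 lay just below the lowest of them. Per longest transcript the shares were higher, with axon means of 24 ± 11.1% for the 4 controls and 49 ± 23.1% for the 5 mutants (SD).

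Arid1b was the minor partner of Arid1a, at 9.97 ± 3.13% of their sum in dorsal controls (SD, n = 4) and 10.3 ± 5.3% in dorsal mutants (SD, n = 5). In axon mutants it ran from 0 to 87%. Arid2 made up 37.1 ± 11% of the 3 ARID genes in dorsal controls and 34.8 ± 11.8% in dorsal mutants (42.2 ± 7.74% without those 2 libraries, where the share of Arid1b was 10.8 ± 6.58%), and the genotypes overlapped in all regions.

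**Figure D4:**
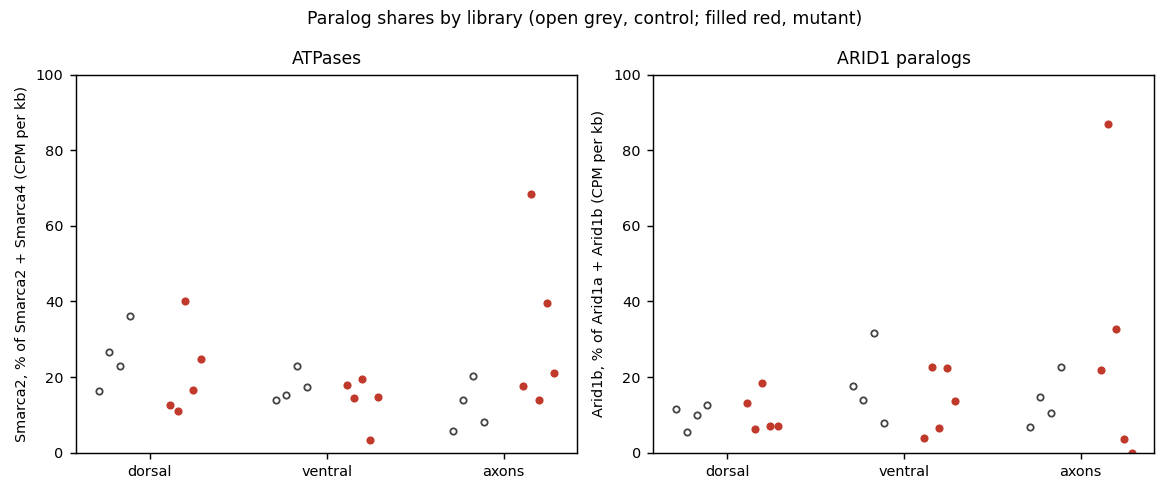
Share of Smarca2 in the sum of both ATPases (left) and of Arid1b in the sum of Arid1a and Arid1b (right), in percent of CPM per kb, for each library by region, with controls open grey and mutants filled red. Genotypes overlap in every region, and axon mutant 2 is the highest in both panels, at 68.5% and 87%.

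Across the 27 libraries levels of the subunits were weakly related. Spearman correlations of the 45 pairs had a median of 0.05, the same as over all pairs of genes, and ran from -0.32 (Smarca2 and Smarcb1) to 0.38 (Arid1a and Pbrm1). The genes most like Smarca4 were Vill (0.68), Ttl (0.64) and Arl1 (0.64), and its closest partner among the 10 was Smarcd1 (0.29). For Smarca2 they were Fgd5 (0.68), Aplnr (0.67) and Nid1 (0.66), with Smarce1 (0.32) closest of the 10. Fgd5 and Aplnr are known from endothelium, and their median levels were 0 and 0.0473 CPM. For Arid1a they were Ccnl1 (0.75), Washc1 (0.72) and Mpped1 (0.69), with Pbrm1 (0.38) closest of the 10. Vill and Mpped1 were also low, with median levels of 0.212 and 0 CPM. The genes named as most alike were picked as the highest of all genes tested. All these correlations are over 27 libraries that share embryos, batches and scaling.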

How the data were processed

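Laser-captured tissue was amplified by a Smart-Seq2-type protocol and sequenced as single-end reads. The authors deposited raw counts per gene, made with Seq2Science, STAR and HTSeq on mm10 (versions, annotation release and strand setting are not given in the sources used here). No molecular identifiers were used, so floors set in counts cover counting error only. The intervals of fold changes come from the edgeR fits and are not limited to counting error.

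Low genes were left out, which kept the 16330 that exceeded 10 counts in 3 or more libraries. R 4.3.3 with edgeR 4.0.16 (quasi-likelihood test, TMM, Benjamini-Hochberg adjustment) was used, with batch as covariate within a region and embryo as block between regions. To be called, a gene had to pass 0.05 after adjustment and differ by over 0.58 on the log2 scale in either direction. SEs and 95% intervals are Wald values and can differ from the test near the threshold. DESeq2 1.42.0, limma 3.58.1 and exact two-sided permutation tests of log2(CPM + 1), over all libraries of a region, within batches or over the sign of each embryo's difference, were run as well. On simulated counts, edgeR, DESeq2 and limma voom were checked for the dorsal genotype design, and edgeR for dorsal against axons with the embryo block. The simulated counts held no embryo effect, and the permutation tests and interactions were not checked on them. The subunits and marker lists were chosen with earlier results of these data known. All 10 subunits are described, the genes most like the ATPases and Arid1a were taken by Spearman rank, and embryonic day 12 tissue was not analysed here.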

Additional observations from a re-analysis of the deposited data

Results flagged for a closer look

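In 6 of the 60 gene-and-group sets of the 10 subunits, 1 library stood apart from the others of its group by Dixon's test on log2(CPM + 1). Chance alone does this in about 1 in 20 groups of independent normal values. These sets share libraries and some hold zeros, so that rate is only a rough guide here. Axon mutant 2 had 33.5 CPM of Smarca4, against 198 to 350 CPM in the other axon mutants (gap over range 0.754). All gaps over range given here are on the log2(CPM + 1) scale. The same library had 5.92 CPM of Arid1a, against 105 to 217 CPM (0.79). Arid1a also stood apart in ventral control 3, at 18.8 CPM against 167 to 191 CPM (0.939), and in ventral mutant 3, at 307.5 CPM against 130.2 to 158 CPM (0.772). Smarcd3 was at 13.4 CPM in axon mutant 4 and at 0 to 0.068 CPM in the other axon mutants (0.975). Arid2 was at 57.7 CPM in axon control 2 and at 78.8 to 82 CPM in the other axon controls (0.888).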

How the results depend on the processing

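Of 255 counts of called subunits under other settings 253 were 0. The exceptions were DESeq2 between ventral and axon pieces over both genotypes (1, Smarcd3) and in mutants (1, Smarcd3). With the replicate number as a block the count was 0 in each genotype comparison, and without the embryo block it was 0 in each comparison of regions and interaction. A count of 0 says little about the subunits where few genes of any kind were called. Without the count filter edgeR called 0.385% of all genes between genotypes dorsally, 0.0298% ventrally and 0.0467% in the axons. Without the embryo block it called 0% to 2.09% of all genes between regions. DESeq2 called more, from 2.12% to 24.8% of all genes over its comparisons. Deviations correlated between regions of an embryo at -0.02 to 0.11 and between control and mutant of the same number at -0.05 to 0.03. These ranges overlap and lie near 0, so the correlations cannot tell whether the numbers pair control with mutant. Nor can they tell whether libraries of the same genotype and number come from 1 embryo.

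By exact permutation the dorsal count of 1 ranged from 0 to 1 when each library was left out, and was 2 without mutants 1 and 2, a setting chosen after seeing the data. The axon count of 0 ranged from 0 to 1 (1 without control 3, the only axon control that overlapped the mutants in Smarca2). Between dorsal and ventral the count of 1 ranged from 0 to 1 and was 0 with a pseudocount of 5 and without the embryos of dorsal mutants 1 and 2, where the count between dorsal and axons was 1 (Arid2), a setting also chosen after seeing the data. Between dorsal and axons (1 without mutant 1, Arid2) and between ventral and axons (1 without control 2, Smarcd3) it ranged from 0 to 1. The cause was not tested. Per longest transcript 4 of 10 subunits kept their rank, against 8 to 10 when an embryo was left out, and the mean share of Smarca2 in ATPase RNA moved from 20.6 to 36%, against 19.2 to 21.7% when an embryo was left out. Signs of uncalled fold changes turned in 70 of 580 genotype values, 105 of 1440 region values and 39 of 450 interaction values. With 3 or fewer counts of Smarcd3 in 9 libraries, its differences are the least certain.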
